A study of Mus musculus with 15 samples.

Results

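The corticosteroid receptors, the enzymes that set their ligand and the receptor-induced gene Sgk1 were followed in RNA-Seq data from mouse kidney. The 8 genes, taken by symbol, were Nr3c1, Nr3c2, Hsd11b1, Hsd11b2, Sgk1, Tsc22d3, Fkbp5 and Zbtb16, out of 47069 genes in the table, and all 8 were found. They were chosen with earlier results of these data known. Sgk1 was selected on its TPM differences among sets of tubules, so the levels of these 8 genes among the sets are described without a test, and only the other genes of their pathways are tested on that contrast. The lists of those pathway genes were also chosen with earlier results known. All libraries came from male C57BL/6 mice 2 months old, with no treatment named: 12 were single microdissected proximal tubules labelled PTS2, in the sets m1, m2 and m3 with label numbers 1 to 4 in each, and 3 were whole kidney. The labels do not say what the letter m or the numbers stand for, or whether libraries of a set share an animal, so p-values measure the spread between these libraries, which may be technical. Values are TPM, transcript abundances per gene length that are scaled so that all libraries have the same total. They do not show how deeply a library was sequenced.

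Glucocorticoids and mineralocorticoids act through ligand-activated transcription factors. Nr3c1 encodes the glucocorticoid receptor and Nr3c2 the mineralocorticoid receptor, and both receptors bind corticosterone, the main glucocorticoid of the mouse. Hsd11b2 inactivates corticosterone in aldosterone-sensitive distal nephron cells, which leaves the mineralocorticoid receptor there to aldosterone, while Hsd11b1 mainly regenerates active corticosterone from its inactive 11-keto form. Sgk1 encodes a kinase that both receptors induce, and it is also induced by insulin, growth factors and cell shrinkage. Its best known role in kidney is the control of sodium transport. Tsc22d3 (also called Gilz), Fkbp5 and Zbtb16 are widely used readouts of glucocorticoid receptor activity, and Fkbp5 also encodes a co-chaperone that lowers the receptor's affinity for hormone.

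The sequences before the transcription starts were looked at because Sgk1 is a direct receptor target. In the RefSeq promoter table (build GRCm38.p6, 250 bases before to 50 after a start), 5 of the 8 genes had an entry, with 12 windows in all, of which 6 belonged to Sgk1. The palindromic receptor-binding motif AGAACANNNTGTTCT (N is any base) was searched on both strands, and so was its shorter element AGAACA, which reads TGTTCT on the other strand and occurs on each side of the palindrome. Of the 12 windows, 1 held the palindrome, the one before the start of the Sgk1 transcript Sgk1-202. It lay at chr10:21993701-21993715, beginning 189 bases before that start. It is shown beside the window of the start of Sgk1-201, further downstream in the gene, and that of Fkbp5-201, neither of which held the element. Each sequence is the 250 bases before the start, 5′ to 3′ on the gene's strand, with the AGAACA and TGTTCT elements in capitals.
Sgk1-202, chr10:21993640-21993889, plus strand: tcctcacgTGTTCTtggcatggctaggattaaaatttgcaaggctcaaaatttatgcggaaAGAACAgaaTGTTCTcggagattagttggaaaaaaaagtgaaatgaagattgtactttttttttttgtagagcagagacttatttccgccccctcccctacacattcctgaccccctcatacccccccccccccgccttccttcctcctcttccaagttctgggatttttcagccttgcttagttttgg
Sgk1-201, chr10:21994416-21994665, plus strand: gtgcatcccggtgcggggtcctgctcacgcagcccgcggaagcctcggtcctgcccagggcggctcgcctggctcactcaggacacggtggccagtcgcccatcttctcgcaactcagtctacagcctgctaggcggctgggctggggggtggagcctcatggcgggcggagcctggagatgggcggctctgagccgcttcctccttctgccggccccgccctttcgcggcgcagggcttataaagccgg
Fkbp5-201, chr17:28486150-28486399, minus strand: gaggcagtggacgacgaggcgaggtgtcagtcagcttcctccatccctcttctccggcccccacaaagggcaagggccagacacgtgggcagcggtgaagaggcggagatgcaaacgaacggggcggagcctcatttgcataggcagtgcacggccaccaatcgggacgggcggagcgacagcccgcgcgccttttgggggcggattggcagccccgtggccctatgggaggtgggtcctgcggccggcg
Among all 32851 promoters in the table, 3 (0.00913%) held the palindrome, in windows of the genes Sgk1 and Acnat2, and 6233 (19.0%) held the element. The element was present in 4 of the 12 windows, 3 of Sgk1 and 1 of Tsc22d3. A match of letters is a description of the sequence, not a binding site, and the TPM values are summed per gene, so they do not show which start was used.

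In GENCODE M21 (GRCm38), Sgk1 spans chr10:21882184-21999903, Hsd11b1 chr1:193221634-193264075, Nr3c2 chr8:76899442-77245012, Hsd11b2 chr8:105518755-105523988, Fkbp5 chr17:28399094-28517527, Tsc22d3 chrX:140539528-140600659 and Zbtb16 chr9:48654297-48836222. Marker genes were used to check the tissue labels. Markers of the distal convoluted tubule summed to at most 0.55 TPM in any PTS2 library and to at least 202 TPM in each kidney library. Those of the connecting tubule and principal cells reached at most 15.2 TPM against at least 911 TPM, and those of intercalated cells at most 0.32 TPM against at least 127 TPM. Of the thick ascending limb list, Cldn10 was as high in PTS2 (298 to 360 TPM) as in kidney (294 to 433 TPM). Without it, an alternative chosen after seeing the data, that list summed to 1408 TPM in replicate 3 of m3 and to at most 55.0 TPM in the other tubules. Pan-proximal markers summed to 11299 to 16685 TPM in PTS2 and to 9489 to 10467 TPM in kidney. Of the 6, Slc27a2 alone was above kidney in all tubules, Slc4a4 was below it in all tubules (58.7 to 159 against 214 to 236 TPM), and Slc34a1 had a median of 3248 TPM against 4444 to 4628 TPM. The S1 markers Slc5a2 and Slc5a12 summed to at most 1.49 TPM in PTS2 and to at least 699 TPM in kidney. The S2 markers Slc22a6 and Slc22a8 summed to 368 to 1149 TPM in PTS2 and to 719 to 781 TPM in kidney, Slc22a8 being below kidney in all tubules (24.7 to 161 against 261 to 284 TPM). The S3 markers Slc7a13, Cyp7b1 and Slc22a7 summed to 2107 to 4483 TPM in PTS2 and to 1139 to 1424 TPM in kidney. Of these, Cyp7b1 overlapped kidney (96.8 to 784 against 204 to 231 TPM), and the other 2 were above kidney in all tubules. In tubules labelled PTS2 the S2 sum thus overlapped that of whole kidney and the S3 sum was above it in each library.

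The glucocorticoid receptor was the main corticosteroid receptor transcript in the tubules, and both receptors were lower there than in whole kidney. Nr3c1 ran from 11.03 to 22.18 TPM over the 12 PTS2 libraries (median 15.1 TPM) and was 33.53, 33.24 and 28.98 TPM in the kidney libraries. No tubule reached the lowest kidney library. The PTS2 mean was 15.8 ± 3.15 TPM (SD, n = 12) and the kidney mean 31.9 ± 2.55 TPM (SD, n = 3). On the log2(TPM + 1) scale used for all tests, Nr3c1 was lower in PTS2 by a fitted difference of -0.99 (SE 0.16, limma adjusted p = 6.95e-05). In a bulk sample, fewer cells of a type and less RNA per cell cannot be told apart.

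Nr3c2 was close to the bottom of the scale in every tubule. Its kidney values were 3.96, 4.34 and 4.04 TPM, and its PTS2 values ran from 0.03 to 1.35 TPM with a median of 0.31 TPM. The highest tubule was replicate 3 of m2. The PTS2 mean was 10.3% of the kidney mean, and the fitted difference was -1.88 (SE 0.20, limma adjusted p = 7.94e-07). Nr3c2 met the mean of 1 TPM needed to enter the fit only through the kidney libraries. It therefore had to be lower, and its p-value does not test the direction. Within a library, Nr3c2 made up 10.6 to 12.2% of the TPM of the receptor pair in kidney and 0.216 to 8.91% in PTS2 (median 1.67%). The Nr3c2 share of each tubule lay below that of every kidney library. For each Nr3c2 transcript unit there were 7.17 to 8.47 of Nr3c1 in kidney and a median of 59.0 in PTS2, a ratio that ranged from 10.2 to 462 over tubules with a denominator near 0.

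The enzyme that removes corticosterone was nearly undetected in the tubules, and the enzyme that regenerates it was abundant. Hsd11b2 was 94.70, 91.55 and 77.16 TPM in kidney. The fitted difference was -6.26 (SE 0.14, limma adjusted p = 1.96e-15). Hsd11b2 too met the mean of 1 TPM only through the kidney libraries, so it had to be lower and its p-value does not test the direction. In PTS2, Hsd11b2 was listed at 0 in 2 libraries and was at most 0.49 TPM in the other 10. The highest value, 0.49 TPM, occurred in replicate 4 of m1 and in replicate 3 of m3, the latter being the library with thick ascending limb markers. The PTS2 mean was 0.189% of the kidney mean. Beside it, the PTS2 median of the summed markers was 0.203% of the kidney mean for the distal convoluted tubule and 0.448% for the connecting tubule and principal cells, the segments where the enzyme is known to be expressed. The part of those cell types in the kidney values was not tested.

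Hsd11b1 was the most abundant of the 8 genes in every PTS2 library and also in every kidney library. In the order of the label numbers, m1 had 696.17, 588.28, 601.99 and 391.46 TPM, m2 had 451.17, 411.67, 444.57 and 250.95 TPM, and m3 had 1204.09, 1183.07, 720.26 and 642.03 TPM. The kidney values were 331.81, 445.52 and 285.07 TPM and overlapped those of m1 and m2, while all m3 libraries were above them. With a PTS2 mean of 632 ± 296 TPM (SD, n = 12) against 354 ± 82.5 TPM (SD, n = 3), there was a fitted difference of 0.72 (SE 0.34) that did not pass the threshold (limma adjusted p = 0.0878). It passed with median-of-ratios rescaling (1.02, limma adjusted p = 0.0201) and when replicate 4 of m2, the lowest tubule, was left out (0.82, limma adjusted p = 0.0308). Of the TPM of the pair, Hsd11b2 held 17.0 to 22.2% in kidney and at most 0.125% in any tubule.

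**Figure D1:**
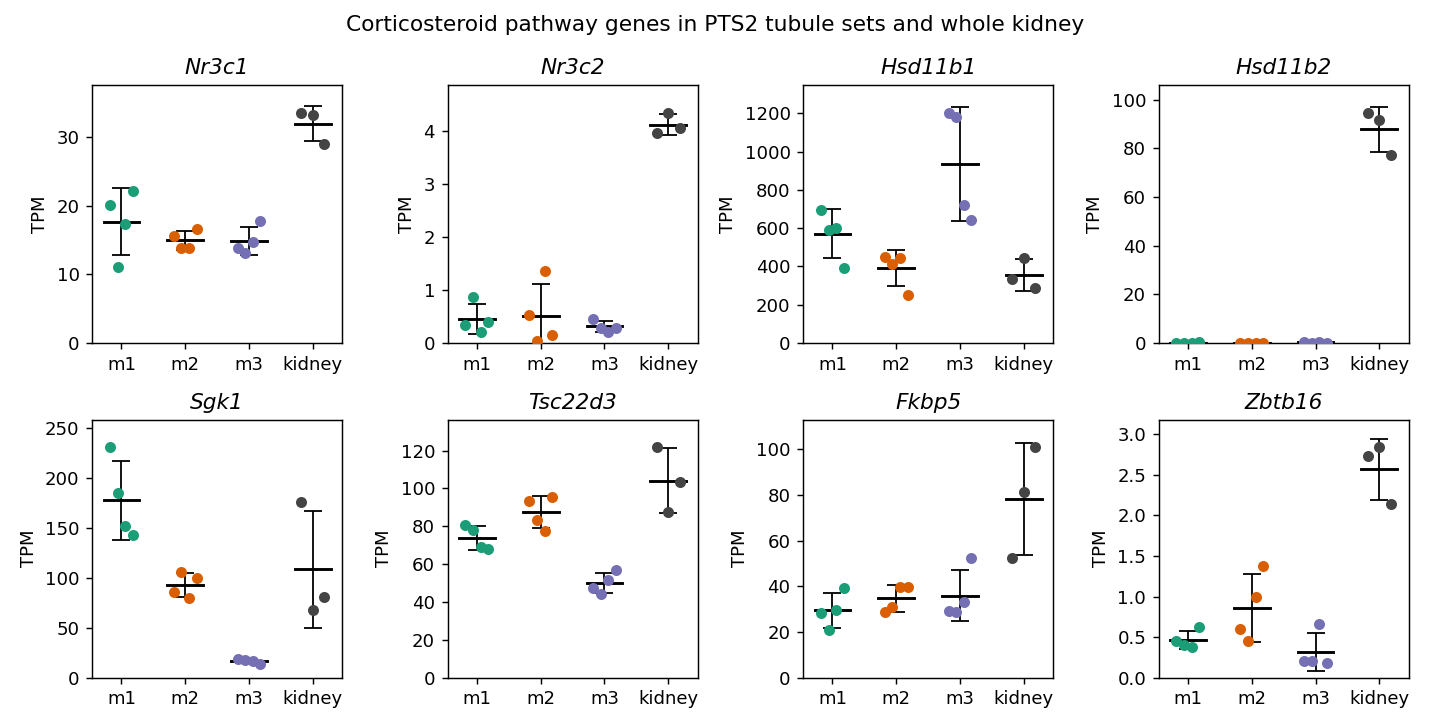
TPM of the 8 genes in each library, with PTS2 libraries coloured by set and whole kidney in a further column; each point is 1 library. Nr3c1, Nr3c2, Hsd11b2 and Zbtb16 do not overlap between PTS2 and kidney, and Sgk1 falls into 3 separate levels by set.

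Of the receptor-induced genes, Fkbp5 was lower in the tubules. It ran from 20.90 to 52.38 TPM over PTS2, with a median of 30.3 TPM, and was 52.32, 81.28 and 100.89 TPM in kidney. The groups met at a single point, where replicate 4 of m3 was just above the lowest kidney library. The fitted difference was -1.19 (SE 0.22, limma adjusted p = 0.000245).

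Zbtb16, which encodes a zinc-finger transcription factor, was low throughout. It was 2.73, 2.84 and 2.14 TPM in kidney and 0.18 to 1.38 TPM in PTS2 (median 0.45 TPM), without overlap. Its mean over the 15 libraries, 0.949 TPM, was under the filter of 1 TPM, so it had no place in the fit across genes. An exact two-sided permutation test on log2(TPM + 1), treating the 15 libraries as independent, gave a difference of -1.23 and p = 0.0044, the smallest value this test gives over 455 arrangements.

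Tsc22d3, a leucine-zipper protein that mediates anti-inflammatory actions of glucocorticoids, differed less. It was 121.70, 87.53 and 103.12 TPM in kidney and 44.45 to 95.65 TPM in PTS2, and the groups overlapped through m2. The fitted difference of -0.59 (SE 0.20) passed the threshold (limma adjusted p = 0.0200), but not with median-of-ratios rescaling (-0.30, limma adjusted p = 0.260). It also missed the threshold without replicate 1 of kidney (-0.47, limma adjusted p = 0.116) and without replicate 3 of kidney (-0.59, limma adjusted p = 0.0607).

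Sgk1 itself did not differ detectably between PTS2 and kidney, and both groups varied widely. The kidney libraries were at 176.19, 68.22 and 81.34 TPM and the tubules at 13.32 to 231.10 TPM, so the kidney values lay inside the tubule range. Their means were 95.9 ± 72.1 TPM (SD, n = 12) for PTS2 and 109 ± 58.9 TPM (SD, n = 3) for kidney, and the fitted difference was -0.60 (SE 0.75, limma adjusted p = 0.522). Of the 7 genes in the fit, 5 were lower in PTS2 at the threshold and 0 were higher. Over all 12039 genes tested, 51.2% were called, 41.5% lower and 9.68% higher. For Nr3c2 and Hsd11b2 the mean of 1 TPM was met only through the kidney libraries, so that count is not a property of the group. The median difference over all genes tested was -0.27, and all differences are read beside it. For Nr3c1, Nr3c2 and Hsd11b2 all tubules were below all kidney libraries, which was so for 32% of all genes tested, and for none of the 7 were all tubules above, which was so for 5.76%.

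**Figure D2:**
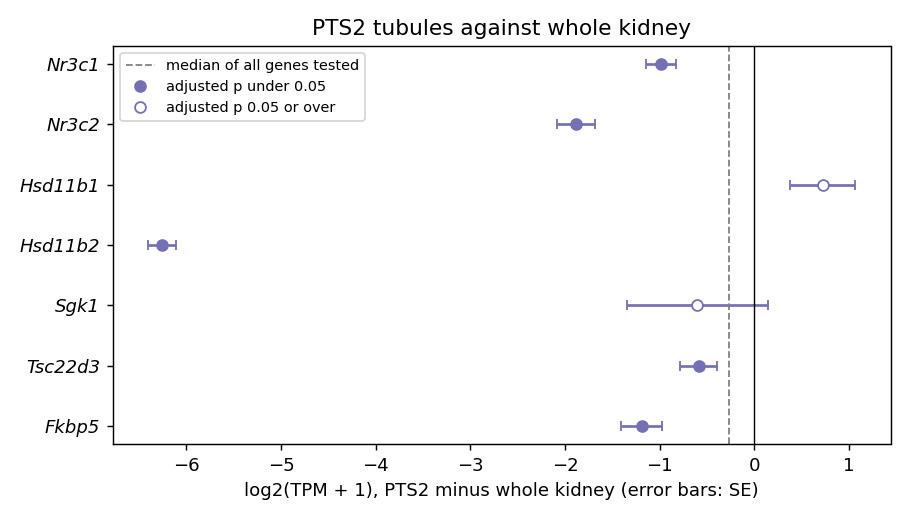
Fitted log2 difference (PTS2 minus whole kidney, log2(TPM + 1) scale) of the 7 genes in the limma fit, with bars of 1 SE; filled points have a limma adjusted p under 0.05, open points do not, and the dashed line is the median of all genes tested, -0.27. Hsd11b2 at -6.26 is the most negative, and Hsd11b1 at 0.72 is the only one above 0.

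Among the 3 sets of tubules, Sgk1 took 3 separate levels. By label number, the m1 libraries had 231.10, 184.84, 152.33 and 143.28 TPM, those of m2 had 86.44, 105.70, 80.11 and 99.95 TPM, and those of m3 had 19.02, 17.95, 16.68 and 13.32 TPM. The lowest m1 library was above the highest of m2, and the lowest of m2 was above the highest of m3. The set means were 178 ± 39.7, 93.05 ± 11.8 and 16.7 ± 2.47 TPM (SD, n = 4 each). The ratio of means was 1.91 for m1 to m2, 5.56 for m2 to m3 and 10.6 for m1 to m3. These levels chose the gene and are given as a description. No overlap between any pair of the 3 sets occurred for 0.69% of the 11300 genes compared.

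Tsc22d3, Fkbp5 and Zbtb16, the other receptor-induced genes among the 8, did not share that order. For Tsc22d3, m1 had 80.52, 78.10, 68.83 and 68.09 TPM, m2 had 93.54, 83.26, 77.67 and 95.65 TPM, and m3 had 47.54, 44.45, 51.37 and 56.65 TPM. Its m3 libraries lay below all of m1 and m2, as for 1.03% of genes. Sets m1 and m2 overlapped each other, and the highest mean was that of m2. The m1 to m3 ratio of means was 1.48 and the m2 to m3 ratio 1.75. Fkbp5 overlapped between all pairs of sets, with means of 29.6 ± 7.62, 34.8 ± 5.80 and 35.9 ± 11.2 TPM (SD, n = 4 each). The highest Zbtb16 mean was in m2, at 0.855 ± 0.417 TPM (SD, n = 4), and all pairs of sets overlapped.

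Hsd11b1 also varied among the sets. Its means were 569 ± 128, 390 ± 94.0 and 937 ± 298 TPM (SD, n = 4 each), so m3, the set with the least Sgk1, had the most Hsd11b1. The ratio of means was 2.41 for m3 to m2, and the m1 libraries overlapped those of both other sets. Nr3c1 means were 17.7 ± 4.85, 14.96 ± 1.37 and 14.9 ± 2.05 TPM, and the sets overlapped. Nr3c2 and Hsd11b2 were at most 1.35 TPM in any tubule and overlapped between all sets.

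Marker sums of other cell types were set beside these levels. The summed endothelial markers ranged over 36.7 to 54.0 TPM in m1, over 26.6 to 51.6 TPM in m2 and over 25.95 to 102 TPM in m3, each of the 6 markers being below kidney in all tubules. The macrophage sum ranged over 26.5 to 48.2, 37.1 to 61.8 and 41.6 to 78.8 TPM in the same order, and 3 of its 4 markers, the complement genes C1qa, C1qb and C1qc, were below kidney in all tubules. Most of that sum was Csf1r, with a median of 38.5 TPM in PTS2 and 18.3 to 23.5 TPM in kidney. Both sums overlapped between the sets. The connecting tubule and principal cell sum was 4.86 to 15.2 TPM in m1, which was above the 4.02 to 4.58 TPM of m3, with 2.41 to 6.14 TPM in m2, and all 5 of its markers were below kidney in all tubules. None of these markers was at 0 in all tubules. The part of these cells in the Sgk1 levels was not tested. Replicate 3 of m3, with thick ascending limb markers, had 16.68 TPM of Sgk1, inside the range of the other m3 tubules. Without that library the m3 values of Sgk1 were 13.32 to 19.02 TPM, the same range.

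Over the 12 tubules, the correlations between pairs of these genes differed from those within sets. Pearson's r of log2(TPM + 1) between Sgk1 and Tsc22d3 was 0.79, and 0.17 after each set's mean was taken out. For Hsd11b1 and Tsc22d3 it was -0.84 and -0.39. For Sgk1 and Hsd11b1 it was -0.57 over all tubules and 0.45 within sets, a change of sign. Nr3c1 and Fkbp5 had 0.52 over all tubules and 0.76 within sets. These are descriptions over 12 libraries that share sets and label numbers, and no p is given.

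The genes whose pattern over the 12 tubules was most like that of Sgk1 were ranked by the same r over 11300 genes, where 12 genes had r above 0.9 and 22 had r below -0.9. The highest were Ddc (aromatic amino acid decarboxylase, which makes dopamine in the proximal tubule) at 0.95, Tubb2a (a beta-tubulin) and Cbr1 (a carbonyl reductase) at 0.94, Akr1c21 (a hydroxysteroid dehydrogenase) at 0.92, and Stx18 (a syntaxin) and Tcea3 (a transcription elongation factor) at 0.91. Ddc had set means of 102 ± 2.08, 101 ± 3.32 and 65.0 ± 2.85 TPM (SD, n = 4 each), so it separated m3 but not m1 from m2. Cbr1 ran similarly, at 35.6 ± 3.42, 32.6 ± 3.35 and 17.7 ± 1.71 TPM. Tubb2a had means of 21.6 ± 1.56, 16.6 ± 2.48 and 11.5 ± 1.00 TPM. Within sets, r with Sgk1 was between -0.17 for Ddc and 0.37 for Stx18 among these 6 genes.

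The most opposite pattern was that of Cish, a cytokine-induced inhibitor of STAT5 signalling, with r = -0.99. Its set means were 4.65 ± 1.08, 12.6 ± 1.15 and 93.5 ± 4.49 TPM (SD, n = 4 each), higher in the sets where Sgk1 was lower. In the kidney libraries, in order, Cish was 13.52, 66.50 and 116.89 TPM and Sgk1 176.19, 68.22 and 81.34 TPM. The kidney library with the most Sgk1 had the least Cish, but replicate 3 was above replicate 2 in both genes. The other 5 were Srsf2 (a splicing factor), Acot9 (a mitochondrial acyl-CoA thioesterase) and Sec11a (a signal peptidase subunit) at -0.95, and Amacr (a racemase of branched-chain fatty acid oxidation) and Car9 (a carbonic anhydrase) at -0.94. Car9 means were 21.4 ± 2.23, 30.5 ± 3.41 and 53.8 ± 5.25 TPM, and Amacr means 559 ± 18.6, 617 ± 24.1 and 725 ± 48.4 TPM. Within sets, r with Sgk1 was -0.18 for Cish and 0.51 for Car9, while Sec11a kept -0.81. The same list by Spearman's rho shared 2 of its 12 genes with this one.

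**Figure D3:**
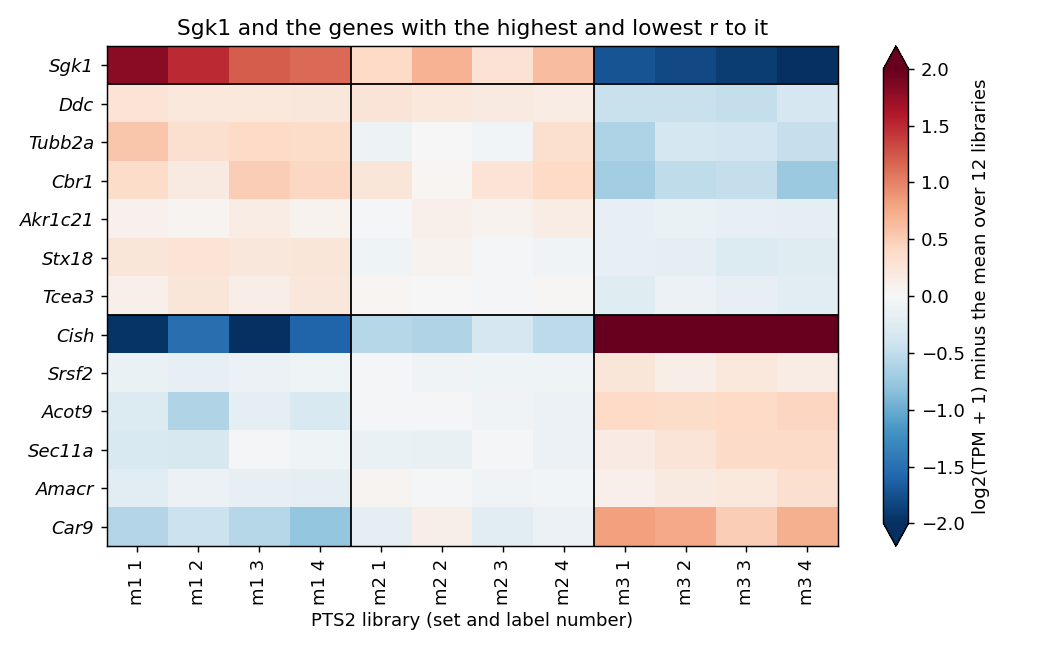
Levels of Sgk1 and of the 6 most like and 6 most opposite genes in the 12 PTS2 libraries, as log2(TPM + 1) minus the gene's mean over the tubules. The colour scale stops at -2 and 2, and Cish exceeds it, as does Sgk1 in replicate 4 of m3. The blocks of colour follow the sets, as the set means in the text do.

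The other genes had different neighbours. For Tsc22d3 they were Angptl4 and Plin5, a lipase inhibitor and a lipid-droplet protein, both with r = 0.95. For Hsd11b1 they were Hist3h2a, a histone gene, at 0.95 and Mdn1, a ribosome-assembly ATPase, at 0.93, and for Fkbp5 they were Ugt2b5, a glucuronosyltransferase, at 0.95 and Dnajc2, a ribosome-associated chaperone, at 0.93. For Nr3c1 they were Kidins220 at 0.93 and St6galnac2, a sialyltransferase, at 0.90. The neighbours of Hsd11b1, Fkbp5 and Nr3c1 kept r between 0.84 and 0.95 within sets.

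The label number, shared by the 3 sets, marked a second pattern in which Hsd11b1 and Fkbp5 ran in opposite directions. Hsd11b1 was highest in the library numbered 1 and lowest in that numbered 4 in each of the 3 sets. With the set as a term, the 4 numbers differed (limma F test, adjusted p = 0.0220), and number 4 was below number 1 by 0.86 (as a signed difference -0.86, with SE 0.13 and a limma adjusted p = 0.00483). The F test called 2.71% of all genes and the comparison of 4 with 1 called 4.76%. Number 4 was lowest in all 3 sets for 4.49% of genes. The F call was lost when any of the 6 libraries numbered 1 or 4 was left out (limma adjusted p between 0.0603 and 0.110), without the filter on low values (limma adjusted p = 0.190) and without the set as a term (limma adjusted p = 0.612).

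Fkbp5 was highest at number 4 in m1 and m3 and at number 3 in m2. It was lowest at number 2 in m1 and m3, and its mean at number 2 (26.9 TPM) was below that at number 1 (28.7 TPM). Its values at number 4 were 39.46, 39.58 and 52.38 TPM in m1, m2 and m3, and at number 1 they were 28.38, 28.58 and 29.26 TPM. The F test gave limma adjusted p = 0.0547, just outside the threshold. It passed when replicate 2 of m2 was left out (limma adjusted p = 0.0405), with either rescaling (limma adjusted p = 0.0322 and 0.0269) and with a filter at a mean of 10 TPM (limma adjusted p = 0.0247). The single contrast of 4 with 1 gave 0.58 on the log2 scale (SE 0.13, limma adjusted p = 0.0320). That call was lost without replicate 3 or 4 of m1, replicate 1 of m2 or replicate 1, 2 or 4 of m3 (limma adjusted p between 0.0522 and 0.169), without the filter (limma adjusted p = 0.140) and without the set term (limma adjusted p = 0.139).

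Nr3c1 was highest at number 4 in all 3 sets, as were 4.79% of genes, but its F test missed the threshold (limma adjusted p = 0.190). Sgk1 (limma adjusted p = 0.308) and Tsc22d3 (limma adjusted p = 0.663) did not differ detectably by number. At each of the 4 numbers, Sgk1 was higher in m1 than in m2 and higher in m2 than in m3. That order follows from the separate levels of the sets given above and is not a further result. Nr3c2, Hsd11b2 and Zbtb16 had PTS2 means under 1 TPM and were not tested.

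**Figure D4:**
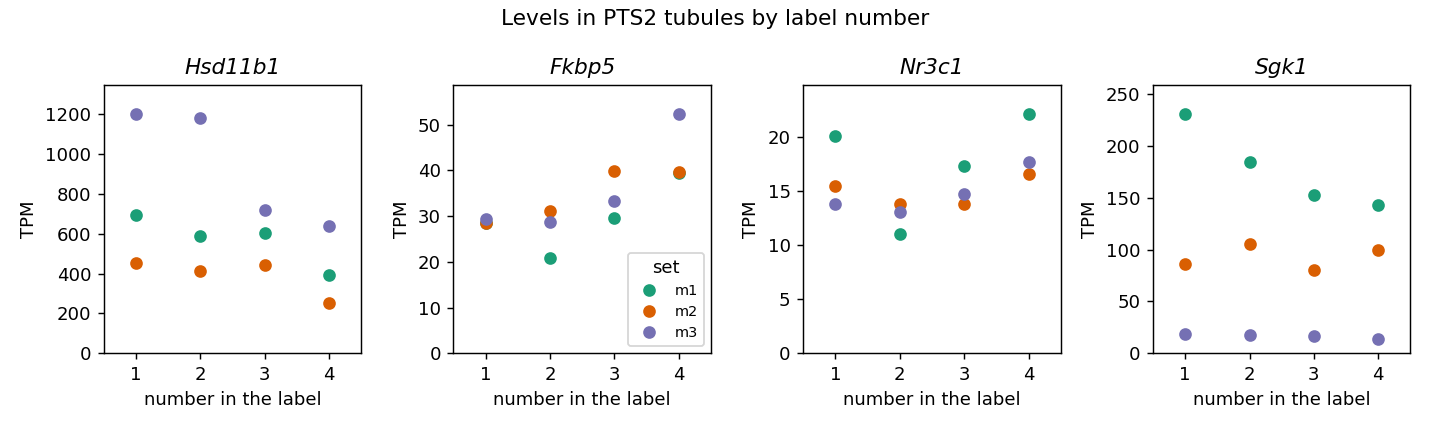
TPM of Hsd11b1, Fkbp5, Nr3c1 and Sgk1 in the 12 PTS2 libraries against the number in the label, coloured by set; each point is 1 library and each axis starts at 0. Hsd11b1 is lowest and Nr3c1 highest at number 4 in each set, and the Sgk1 points stay in 3 bands.

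The genes around Sgk1 in its own pathway were taken as lists. Of 7 genes for the sister kinases and the activation of Sgk1, 4 were lower in PTS2 than in kidney and 1 was higher, with a median log2 difference of -0.49 against -0.27 over all genes. Of all genes tested, 41.5% were lower and 9.68% higher, and the counts of this and the following lists are to be read beside those shares. Sgk2, the related kinase, had 142 ± 18.3 TPM (SD, n = 12) in tubules and 133 ± 10.9 TPM (SD, n = 3) in kidney, a difference of 0.09 (SE 0.11, limma adjusted p = 0.515) that passed with median-of-ratios rescaling (0.38, limma adjusted p = 0.00323). Sgk3 was lower, at 3.799 ± 0.978 against 8.28 ± 1.71 TPM (difference -0.97, SE 0.22, limma adjusted p = 0.00138). Since TPM are per length, the levels can be set side by side: Sgk1 was above Sgk2 in the mean of m1 (178 against 146 TPM) and below it in m2 (93.05 against 124 TPM) and in m3 (16.7 against 156 TPM). Sgk2 did not differ detectably among the sets (limma F test, adjusted p = 0.117).

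Of the activating kinases, Pdpk1 (PDK1, which phosphorylates the activation loop of Sgk1) was lower in PTS2 by 0.63 (log2 difference -0.63, SE 0.13, limma adjusted p = 0.000861). The mTORC2 subunits Rictor (-0.49) and Mlst8 (-0.69) were lower, and Mapkap1 was not called. Mtor, the kinase of that complex, was higher at 78.7 ± 27.0 against 45.2 ± 12.6 TPM (difference 0.74, limma adjusted p = 0.0292). With median-of-ratios rescaling Rictor and Mlst8 were not called, and with quantile normalization Pdpk1, Mlst8 and Sgk3 were not called and Rictor was higher (0.28), so the list has no direction that holds over the scalings. The Mlst8 call was lost without kidney replicate 2, and the Mtor call without kidney replicate 1 or 3 (highest limma adjusted p = 0.0503 and 0.130).

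Sgk1 substrates and sodium transport effectors were taken as 1 list. It includes Foxo1, Foxo3, Ndrg1 and Ndrg2, so its counts are not limited to sodium transport. Of its 19 genes, 16 were called lower in PTS2, Foxo1 and Foxo3 among them, and 0 higher. The list had a median log2 difference of -1.61, and over all genes 41.5% were lower and 9.68% higher. For 3 of the 16, Slc12a3, Scnn1b and Scnn1g, the mean of 1 TPM was met only through the kidney libraries, so these had to be lower. With median-of-ratios rescaling 13 were lower and 0 higher, and with quantile normalization 13 were lower and 1, Nedd4l, was higher (0.53). The largest differences were those of Slc12a3, the thiazide-sensitive cotransporter (0.293 ± 0.168 against 179 ± 4.24 TPM, difference -7.13), Kcnj1, the ROMK potassium channel (-6.61), and Scnn1b, a subunit of the epithelial sodium channel (-5.19). Kcnj1 was 32.25 TPM in replicate 3 of m3, the library with thick ascending limb markers, and at most 1.47 TPM in the other tubules. These 3 genes belong to the thick ascending limb and distal segments, whose markers were at the low levels given above, and the part of those cells was not tested. Nedd4l, the ubiquitin ligase that Sgk1 phosphorylates, was 17.4 ± 4.81 TPM in PTS2 and 16.1 ± 1.49 TPM in kidney (limma adjusted p = 0.823). Ndrg1 and Ndrg2, used as readouts of Sgk activity through their phosphorylation, were not called either. Ndrg1 was among the most abundant, at 1169 ± 352 TPM in PTS2 and 1453 ± 314 TPM in kidney (limma adjusted p = 0.252).

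Among the sets, the F test called 3.02% of all genes. Of the Sgk1 substrates and sodium transport effectors, 1 of 16 was called. This was Ndrg1, with 1451 ± 222, 1301 ± 136 and 755 ± 172 TPM (SD, n = 4 each, limma F test, adjusted p = 0.00407). In the order m1, m2, m3 its means ran in the same direction as those of Sgk1. Of the activation list, 1 of 7 was called, Mtor, which was higher in m3 (109 ± 15.5 TPM) than in m1 (55.9 ± 11.8 TPM; limma F test, adjusted p = 0.0291). That call was lost when replicate 2, 3 or 4 of m1 or replicate 1, 2 or 3 of m3 was left out (highest limma adjusted p = 0.108). Ndrg1 was called in each removal of a single library.

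The machinery that carries and reads the receptors differed by class. Of 12 chaperone genes, 1 was higher in PTS2 and 2 were lower, with a median of -0.05. Dnaja1, an Hsp40, was higher by 0.18 (limma adjusted p = 0.0255), and St13, the Hip co-chaperone (-0.34, limma adjusted p = 0.0206), and Bag1, a nucleotide exchange factor (-0.18, limma adjusted p = 0.0108), were lower. With median-of-ratios rescaling 6 of the 12 were higher and 0 lower, so no direction is given for the class. The Dnaja1 call was lost without kidney replicate 1 or 2, the St13 call without kidney replicate 1 or 3, and the Bag1 call without kidney replicate 1. Of 11 coregulators, 9 were lower and 0 higher (41.5% and 9.68% of all genes), with a median of -0.58, which quantile normalization moved to 0.00 with 4 lower and 1 higher. Ppargc1a, the coactivator PGC-1alpha, was 10.4 ± 2.76 against 50.5 ± 1.63 TPM (difference -2.22, limma adjusted p = 1.46e-07). The repressor Nrip1 was also lower (-0.91), and Ppargc1a and Nrip1 kept direction and call under both rescalings.

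Between the sets, 0 of 11 coregulators and 2 of 12 chaperones were called, beside 3.02% of all genes. Hsp90aa1, the inducible HSP90 that holds the receptors ready for hormone, was 440 ± 44.8, 365 ± 20.7 and 326 ± 20.1 TPM (limma F test, adjusted p = 0.0241). That call was lost without replicate 3 or 4 of m1 or replicate 1, 2 or 3 of m3 (highest limma adjusted p = 0.0813). Dnajb1, an Hsp40, was 45.5 ± 6.00, 86.4 ± 5.44 and 64.8 ± 4.45 TPM, highest in m2 (limma F test, adjusted p = 0.000377).

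Of 10 genes for glucocorticoid supply and removal, 5 were expressed enough to be tested against kidney, with 1 higher and 1 lower. Akr1d1, the 5-beta reductase that inactivates steroid hormones, was 80.6 ± 18.6 against 41.8 ± 10.3 TPM (difference 0.92, SE 0.20, limma adjusted p = 0.00132). H6pd, which makes the NADPH that Hsd11b1 uses, was 54.2 ± 9.95 against 74.2 ± 8.56 TPM (difference -0.46, limma adjusted p = 0.0237). That call was lost with either rescaling and without kidney replicate 1 or 2 (highest limma adjusted p = 0.109). Among the sets the 5-alpha reductases Srd5a2 (12.1 ± 2.68, 6.45 ± 2.92 and 32.3 ± 20.4 TPM; limma F test, adjusted p = 0.0124) and Srd5a1 (limma F test, adjusted p = 0.0342) were called, both with their highest mean in m3, where Hsd11b1 was also highest. The Srd5a1 call was lost in 9 of 12 removals of a single library.

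Of 26 other glucocorticoid-induced genes, 24 were tested against kidney, 13 being lower and 4 higher (41.5% and 9.68% of all genes), with a median of -0.62. For 3 of the 13, Ddit4, Mt2 and Lcn2, the mean of 1 TPM was met only through the kidney libraries, so these had to be lower. The metallothioneins Mt1 (11.3 ± 26.6 against 417 ± 56.8 TPM, difference -6.43) and Mt2 (-4.80) and the lipocalin Lcn2 (-2.66) were lowest relative to kidney. The higher genes included the metabolic targets Angptl4 (123 ± 56.4 against 47.1 ± 25.8 TPM, difference 1.33, limma adjusted p = 0.0144), Cebpb, a transcription factor of gluconeogenesis (0.73), and Glul, glutamine synthetase (0.50). Mt1 was 95.27 TPM in replicate 3 of m3, the library with thick ascending limb markers, and at most 11.84 TPM in the other tubules. With median-of-ratios rescaling 11 genes of the list were lower and 4 higher, and with quantile normalization 7 and 4. The Angptl4 call was lost without kidney replicate 2 or 3, and the Glul call without kidney replicate 1 or 2 (highest limma adjusted p = 0.118 and 0.177). The list was thus called in both directions. Of its fellow targets, Fkbp5 and Tsc22d3 were called lower, the latter not with median-of-ratios rescaling. Zbtb16 was lower in its permutation test, and Sgk1 was not called.

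**Figure D5:**
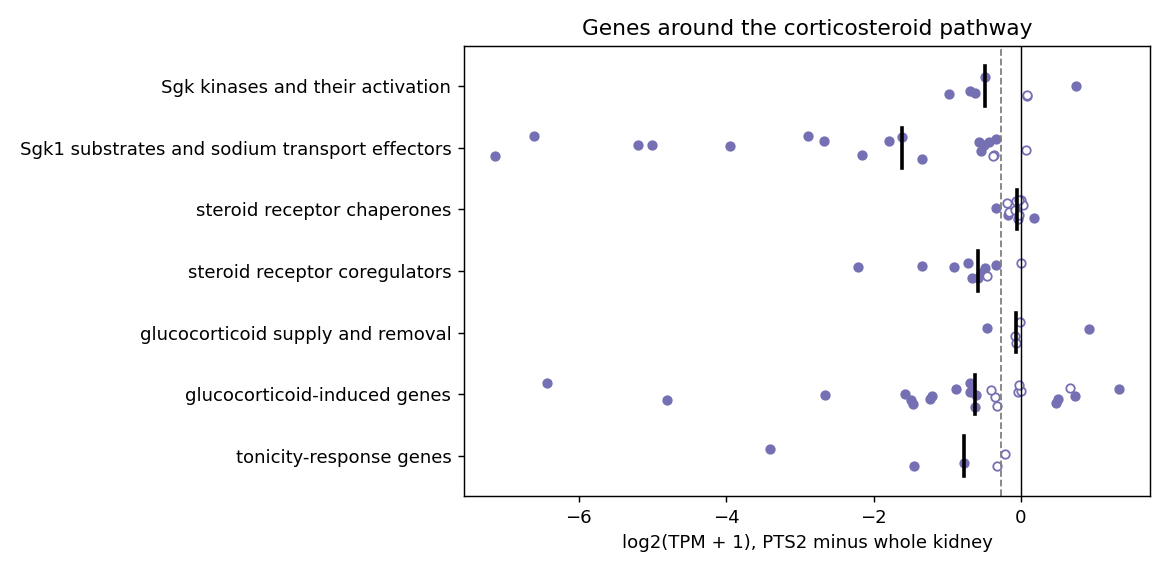
Log2 difference (PTS2 minus whole kidney, log2(TPM + 1) scale) of each tested gene of the 7 pathway lists; filled points have a limma adjusted p under 0.05, open points do not, the black bar is the list median and the dashed line the median of all genes tested. The list of Sgk1 substrates and sodium transport effectors has its median at -1.61 and the chaperones at -0.05.

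Among the sets, 5 of 21 genes of that glucocorticoid-induced list were called by the F test, all with a lower mean in m3 than in m1, beside 1.09% of all genes. None was higher in m3, beside 1.93% of all genes, but with the replicate number as a block 7 were lower and 3 higher in m3. The list was chosen with earlier results of these data known, so its counts beside these shares are not a test of enrichment. Angptl4 had 133 ± 23.0, 182 ± 7.38 and 54.4 ± 4.03 TPM (SD, n = 4 each; limma F test, adjusted p = 2.35e-06), the same order of sets as Tsc22d3. Pdk4, which like Angptl4 is also a fasting and PPAR target, had 9.80 ± 3.93, 16.6 ± 2.72 and 6.11 ± 1.06 TPM (limma F test, adjusted p = 0.0115), and its m3 minus m1 contrast alone missed the threshold (limma adjusted p = 0.203). G6pc, the last step of gluconeogenesis, had 446 ± 129, 300 ± 97.4 and 155 ± 67.4 TPM, the same order as Sgk1 (limma F test, adjusted p = 0.0179). Tsc22d1, a family member of Tsc22d3, had 398 ± 59.5, 276 ± 15.3 and 242 ± 27.1 TPM (limma F test, adjusted p = 0.00407). Nfkbia, the NF-kappaB inhibitor, had 16.8 ± 1.31, 12.5 ± 0.201 and 11.4 ± 1.33 TPM (limma F test, adjusted p = 0.0193).

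Without replicate 1 or replicate 3 of m3 the count was 3. The G6pc call was lost without replicate 1, 2 or 3 of m3, and the Nfkbia call without replicate 3 of m1 or replicate 1 or 3 of m3 (highest limma adjusted p = 0.0703 and 0.0740). The remaining 16 genes were not called, among them Per1 (limma F test, adjusted p = 0.559) and Klf9 (limma F test, adjusted p = 0.270), a clock gene and a zinc-finger factor that respond to glucocorticoids in many tissues.

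Cell shrinkage also induces Sgk1, so tonicity-response genes were taken as a further list. Of 6 genes 5 were tested, and 3 were lower in PTS2 than in kidney and 0 higher: Nfat5, the tonicity-responsive transcription factor (1.67 ± 0.205 against 6.31 ± 0.376 TPM, difference -1.45), Slc5a3, the myo-inositol transporter (-3.40), and Akr1b3, aldose reductase (-0.77), all 3 also with both rescalings. Among the sets 0 of the 5 were called. With median-of-ratios or quantile rescaling 1 was, Hspa4l, a heat-shock protein, which was lower in m3 than in m1 (-0.50 and -0.51; limma F test, adjusted p = 0.0105 and 0.00764). Akr1b3 was called with a filter at 10 TPM (limma F test, adjusted p = 0.0403), and both were with the replicate block (limma F test, adjusted p = 0.00297 for Akr1b3 and 0.0309 for Hspa4l). Nfat5 was 1.70 ± 0.152, 1.69 ± 0.192 and 1.64 ± 0.302 TPM (limma F test, adjusted p = 0.983). In the fit without these changes Akr1b3 came nearest the threshold, at 62.6 ± 6.14, 48.3 ± 5.89 and 70.3 ± 10.3 TPM (limma F test, adjusted p = 0.0579), with its lowest mean in m2 and not in the order of Sgk1.

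By label number, the F test called 2 of 16 genes of the list of Sgk1 substrates and sodium transport effectors. It called 4 of 21 of the glucocorticoid-induced list, beside 2.71% of all genes. G6pc was higher at number 4 than at number 1 (0.92 on the log2 scale, SE 0.12, limma F test, adjusted p = 0.0102), and was called in each removal of a single library. Slc9a3, the proximal sodium-hydrogen exchanger, was higher at number 4 (0.93, SE 0.20, limma F test, adjusted p = 0.0170), as was Errfi1, a feedback inhibitor of EGF receptor signalling (0.55, limma F test, adjusted p = 0.0108). Cebpb (-0.57) and Glul (-0.54) were lower at number 4, as Hsd11b1 was, and Ndrg1 was higher (0.34). The Cebpb, Glul and Ndrg1 calls were lost in 9, 8 and 10 of the 12 removals of a single library. The Slc9a3 call was lost without replicate 4 of m1, replicate 1 of m2 or replicate 2 or 4 of m3, and the Errfi1 call without replicate 4 of m1.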

How the data were processed

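Per the labels' protocols, polyA RNA was made into cDNA with the SMART-Seq V4 low-input kit before Illumina library preparation. The authors deposited 1 table of TPM per gene and library, with no sequencing depth. Each of the 15 columns sums to between 999999 and 1000001, and 4 columns holding the mean TPM of each tissue and its standard error (an error signal the authors deposited beside the TPM) were not used here. STAR 2.5.1b, RSEM 1.2.31 and the build GRCm38.p5 are named in the submitters' processing notes, without their roles. TPM cannot give counts, so no count model and no counting interval was used, and the precision rests on the number of libraries.

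limma 3.58.1 (R 4.3.3; lmFit, eBayes with a trend) was applied to log2(TPM + 1). Genes entered a fit where their mean over its libraries reached 1 TPM, with Benjamini-Hochberg adjustment over all of them and a threshold of 0.05. PTS2 against kidney used all 15 libraries and took the set as a block with an estimated correlation (0.0669), each kidney library being its own block. The sets were compared by an F test over 12 libraries, and the label numbers by an F test with the set as a term. The fits were tested on simulated data. Zbtb16 had an exact permutation test in Python 3.11.15 (scipy 1.17.1, numpy 2.4.6, pandas 2.3.3). Figures were drawn with matplotlib 3.10.9.

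Genes are named by symbol. The rule named the 8 genes, the 6 highest and 6 lowest r with Sgk1, the 2 highest r with each other gene above a mean of 1 TPM in PTS2, and, of each of 7 pathway lists (91 genes), up to 3 called genes a direction and comparison and all of a list of 7 or fewer. Sgk2, Nedd4l, Ndrg1, Ndrg2, Per1 and Klf9 in contrasts where they were not called, and the remaining list genes named outside that rule, were chosen after their values were seen. The genes and lists were chosen with earlier results of these data known. The 12 marker lists served only as summed TPM. Alternatives were a pseudocount of 0.1, no filter, a filter at 10 TPM, rescaling by median-of-ratios or to common quantiles, the replicate number as a block, leaving the set term out for the label numbers, dropping the correlation or averaging each set for the kidney contrast, and each library left out in turn. A gene that the naming rule selects is not reported here.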

Additional observations from a re-analysis of the deposited data

Results flagged for a closer look

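Within each set of 4 tubules the highest and lowest value of each gene was compared with the rest by Dixon's ratio of the gap to the range. Of 24 such groups 2 stood out, where chance gives about 1.2. Hsd11b2 was listed at 0 TPM in replicate 4 of m2, the other 3 tubules of the set being at 0.12 to 0.13 TPM. Zbtb16 was 0.66 TPM in replicate 3 of m3 and 0.18 to 0.21 TPM in the other 3. On the log2(TPM + 1) scale 3 groups stood out. Replicate 3 of m3 is also the tubule with thick ascending limb markers (1408 TPM without Cldn10, a sum chosen after seeing the data), and the part of that cell type in its Zbtb16 value was not tested.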

How the results depend on the processing

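Of the 55 list genes called between PTS2 and kidney 10 changed sign with a rescaling. These were Bag1 with median-of-ratios (0.11) and, with quantile normalization, Rictor (0.28), Foxo1 (0.13), Foxo3 (0.29), Oxsr1 (0.30), Ncoa2 (0.081), Crebbp (0.20), Ep300 (0.027), Tle3 (0.13) and Arrdc2 (0.012), all lower as deposited. No other called value among 2348 recomputed ones changed sign. Without a filter 6 of the 11 list genes called among the sets (Mtor, Hsp90aa1, Srd5a1, Srd5a2, Pdk4 and G6pc) lost the call, as did all 6 called by label number, which also lost it without the set term. The count of genes called between PTS2 and kidney, 6161, was 9399 without a filter and 3113 with a mean of at least 10 TPM, and 4761 to 6712 with single libraries left out. The share of calls that were higher in PTS2 was 18.9%, 50.7% with median-of-ratios rescaling and 66.2% with quantile normalization, which moved the median difference of all genes from -0.27 to 0.00 and 0.16. Among the sets, 341 genes were called, 196 without a filter and 197 to 563 with single libraries left out, the count moving by over 1.5 times without replicate 1 of m1 (563), replicate 2 of m2 (220) or replicate 1, 2 or 3 of m3 (197, 226 and 209). Higher calls in m3 over m1 made up 70.4%, and 54.6% and 52.8% with those rescalings. By label number, 306 genes were called, 75 to 507 with single libraries left out (75 without replicate 4 of m1, 507 without replicate 2 of m2, and 108 to 201 without replicate 1 of m1, replicate 1 or 4 of m2 or replicate 1, 2 or 4 of m3), 0 without a filter (2871 at an unadjusted p under 0.05) and 0 without the set term (1419). The list of 12 genes most like or opposite to Sgk1 shared 2 with that by Spearman's rho, 11 with a pseudocount of 0.1 and 9 without replicate 3 of m3.

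The replicate number as a block gave 888 calls among the sets, 10 of them in the glucocorticoid-induced list (7 lower and 3 higher in m3), and 6292 between PTS2 and kidney, and Hsd11b1 then passed against kidney (0.90, limma adjusted p = 0.0214). The pairing by number was not borne out for every pair: deviations from the set means had r over 0.1 in 7 of 12 same-numbered set pairs (mean 0.143). The mean was -0.0481 in the 36 other pairs. Because the set means were taken out, that value follows closely from the mean of the same-numbered pairs and is not a separate result. Of the 12 libraries, 9 correlated best with their own number. Nr3c2 fell under the filter with a mean of at least 10 TPM, with quantile normalization and without any kidney library. The m3 to m1 log2 ratio of Sgk1 means stayed between -3.50 and -3.26 with single libraries left out. The causes of these changes were not tested, and depth is unknown.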
